A study of Mus musculus with 135 samples.

Results

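The clustered protocadherins are 57 protein-coding genes of the 21951 in the GENCODE M21 annotation, taken by name as every gene starting with Pcdha, Pcdhb or Pcdhg. They comprise 14 alpha, 22 beta and 21 gamma genes in tandem on the plus strand of mm10 chromosome 18, with first and last start sites at 36930184 and 37822134. Of the 57 entries 56 have a name of their own, since 2 are both named Pcdha11 and are called its first and second entry here. Every peak of trimethylated histone H3 lysine 4 (H3K4me3) within 1 kb of a member's transcription start site (TSS) was taken as its promoter peak. This gave 52 of 67114 peaks in male germ cells, 39 of 67192 in embryonic stem (ES) cells, 20 of 23809 in cardiomyocytes and 5 of 29138 in hepatocytes.

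Clustered protocadherins are cell-surface proteins of the cadherin superfamily that neurons use to tell their own branches from those of other cells. In the alpha and gamma clusters each variable first exon has a promoter of its own and is spliced to constant exons shared by the cluster, while each beta gene is a single coding exon. Most of these promoters are chosen at random in single neurons, with the factor CTCF and cohesin joining a promoter to distant enhancers, whereas the C-type genes (Pcdhac1, Pcdhac2, Pcdhgc3, Pcdhgc4 and Pcdhgc5) are used more evenly. H3K4me3 is a histone mark of active and poised promoters.

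The study compared C57BL/6J (B6) with DBA/2J (D2) mice, their (B6xD2)F1 hybrid and recombinant inbred BXD lines, which carry mosaics of both parental genomes, by H3K4me3 ChIP-seq of MNase-digested chromatin. Of 135 samples 123 were H3K4me3 libraries and 12 were input, which was not used here. Germ cells were a crude isolate from males at 14 days post-partum, with 3 B6, 3 D2 and 4 F1 libraries and a panel of 69 libraries of BXD lines. Females aged 8 weeks gave the hepatocytes and cardiomyocytes, each cell type with 3 libraries per strain for B6, D2, BXD75 and BXD87. ES cell lines from embryos of day 3.5 gave 5 libraries for each of these 4 strains. The 5 ES libraries of B6 and of D2 come from 3 lines each, and repeat libraries of a line were summed, so that n = 3 lines for the founders and n = 5 lines for BXD75 and BXD87. The NEXTflex kit was used for germ cells and the KAPA hyper kit for the other cell types. Antibody lot 2557645 was used for the germ cells of B6, D2, F1 and some panel strains, and lot 2746331 for all other libraries. Whether libraries of a strain came from separate animals is not stated, so p-values measure the spread between these libraries, which may be technical.

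Depth, in units of 1000000 reads in peaks per library, ranged from 6.93 to 31.4 in B6, D2 and F1 germ cells, from 1.87 to 18.6 in the panel, from 13.8 to 20.2 in ES cells, from 8.95 to 25.2 in hepatocytes and from 2.62 to 12.8 in cardiomyocytes. In germ cells depth ran from 6.93 to 16.4 in B6 and from 8.73 to 30.3 in D2. The D2 cardiomyocytes were the shallowest of the founders at 2.62 to 4.11, against 6.84 to 8.34 in B6. Of 10 marker genes per cell type a promoter peak was found for 9 in germ cells (not Zbtb16), 10 in hepatocytes, 7 in ES cells (not Pou5f1, Nanog or Tdgf1) and 6 in cardiomyocytes (not Myh6, Actc1, Tnnt2 or Nppa). Levels are given as CPM per kb, the CPM at the TMM-normalised library size divided by the peak length in kb. These are bulk samples, in which fewer marked cells and less mark per cell cannot be told apart.

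Promoter peaks covered nearly the whole cluster in germ cells and almost none of it in hepatocytes. In germ cells 51 of 57 genes had one: 14 of 14 alpha, 18 of 22 beta and 19 of 21 gamma. In ES cells 37 genes had one, with 11 alpha, 6 beta and 20 gamma genes. In cardiomyocytes 20 genes had one, of which 18 were gamma genes, with Pcdhac2 of the alpha and Pcdhb19 of the beta cluster. In hepatocytes the 5 genes were Pcdha8, Pcdhga5, Pcdhgb7, Pcdhga12 and Pcdhgc3. Peaks of any kind covered 18.37% of the stretch in germ cells, 17.81% in ES cells, 6.2% in cardiomyocytes and 2.21% in hepatocytes.

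Pcdhga5, Pcdhga12 and Pcdhgc3 were the 3 genes with a promoter peak in all 4 cell types. Germ cells, ES cells and cardiomyocytes shared 13 more, namely Pcdhac2 and 12 gamma genes. Another 18 genes had a promoter peak in germ and ES cells, among them 9 alpha genes, and 14 in germ cells alone, of which 11 were beta genes. For some of the 14 this turns on the 1 kb window. The germ cell peaks of Pcdha7, Pcdhb7, Pcdhb10 and Pcdhb18 start 906 to 992 bp after the TSS, and ES cells have peaks at these genes that start 1266 to 1674 bp after it. Pcdhb8, Pcdhb9, Pcdhb13 and Pcdhb21 had no promoter peak in any cell type, though each had a peak further inside the exon in germ or ES cells. Pcdhgc5 had a promoter peak in ES cells and cardiomyocytes and not in germ cells, where a peak of 5086 bp starts 1713 bp after the TSS. Pcdha8 had a promoter peak in germ cells, ES cells and hepatocytes. In cardiomyocytes 16 of the 20 peaks carry names that mark them as found on the reference genome alone, against 4 of 52 in germ cells and 1 of 39 in ES cells, and depth differed between cell types, so that a missing peak is a statement about the deposited lists. The share of such names over all peaks of each list was not counted.

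**Figure D1:**
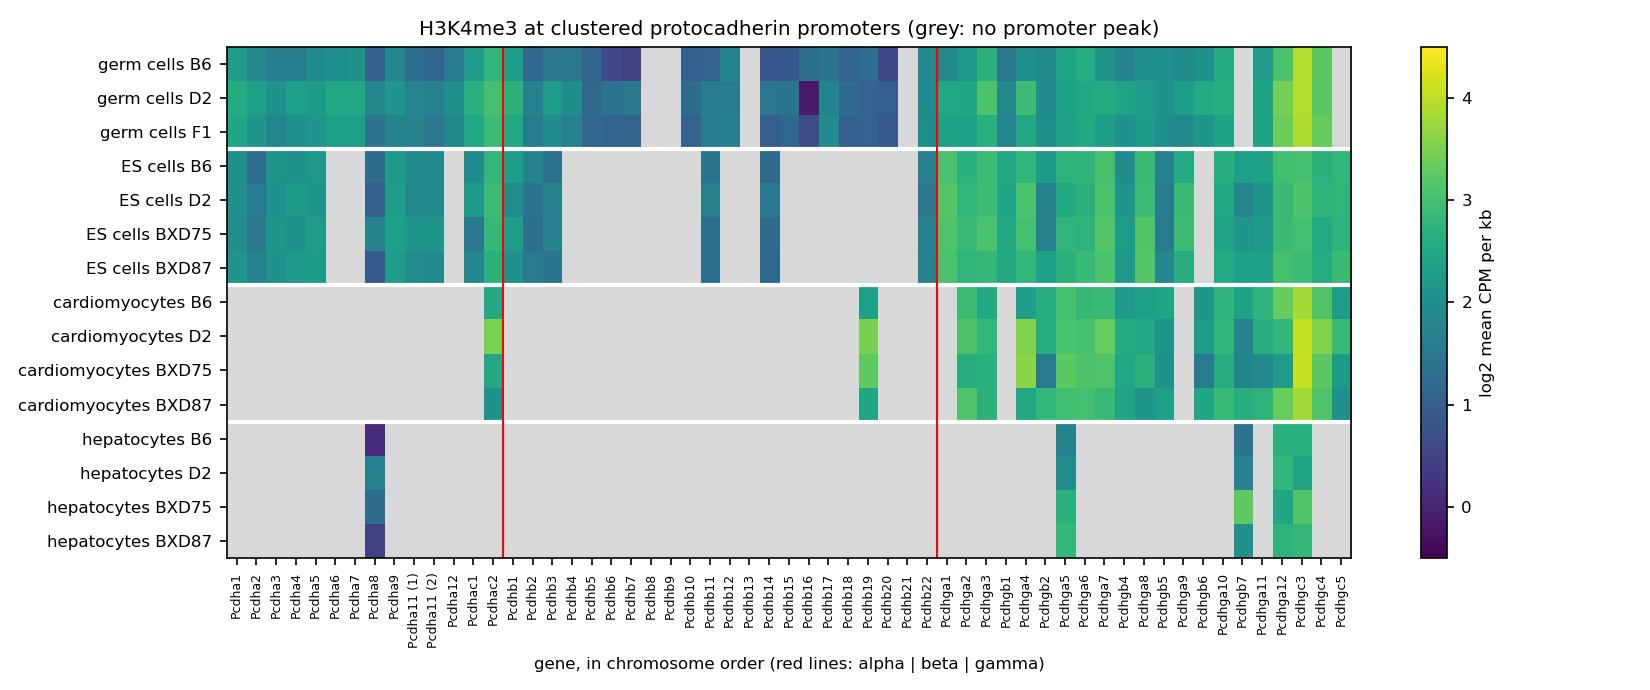
Mean H3K4me3 level (colour, log2 CPM per kb) of each member in chromosome order (columns), by cell type and strain (rows; n = 3 to 5 libraries or lines), with grey where the list has no promoter peak. The germ cell rows are filled for 51 of 57 genes, the cardiomyocyte rows mainly in the gamma cluster and the hepatocyte rows at 5 genes.

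The extent of the peaks differed between germ and ES cells in the alpha and beta clusters. In germ cells the median promoter peak was 2746 bp long, and alpha peaks ran from a median of -614 bp to a median of 2542 bp relative to the TSS, where the first exons are 2346 to 3028 bp long. In ES cells the alpha peaks had a median length of 1109 bp and the beta peaks of 1048 bp. A separate peak further inside the first exon stood at 25 genes in ES cells, 17 of them beta genes, and 15 of the 25 had no promoter peak. These inner peaks started at a median of 1377 bp after the TSS. Germ cells had such a peak at 8 genes, and neither hepatocytes nor cardiomyocytes had any. The cluster medians of gamma promoter peaks were closer, at 2620 bp in germ cells and 2135 bp in ES cells.

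The count of ES member peaks depended on the window for that reason: 37 lay within 500 bp of a TSS, 39 within 1 kb and 64 within 2 kb, against 47, 52 and 60 in germ cells. In hepatocytes and cardiomyocytes the count was the same at all 3 windows, 5 and 20.

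**Figure D2:**
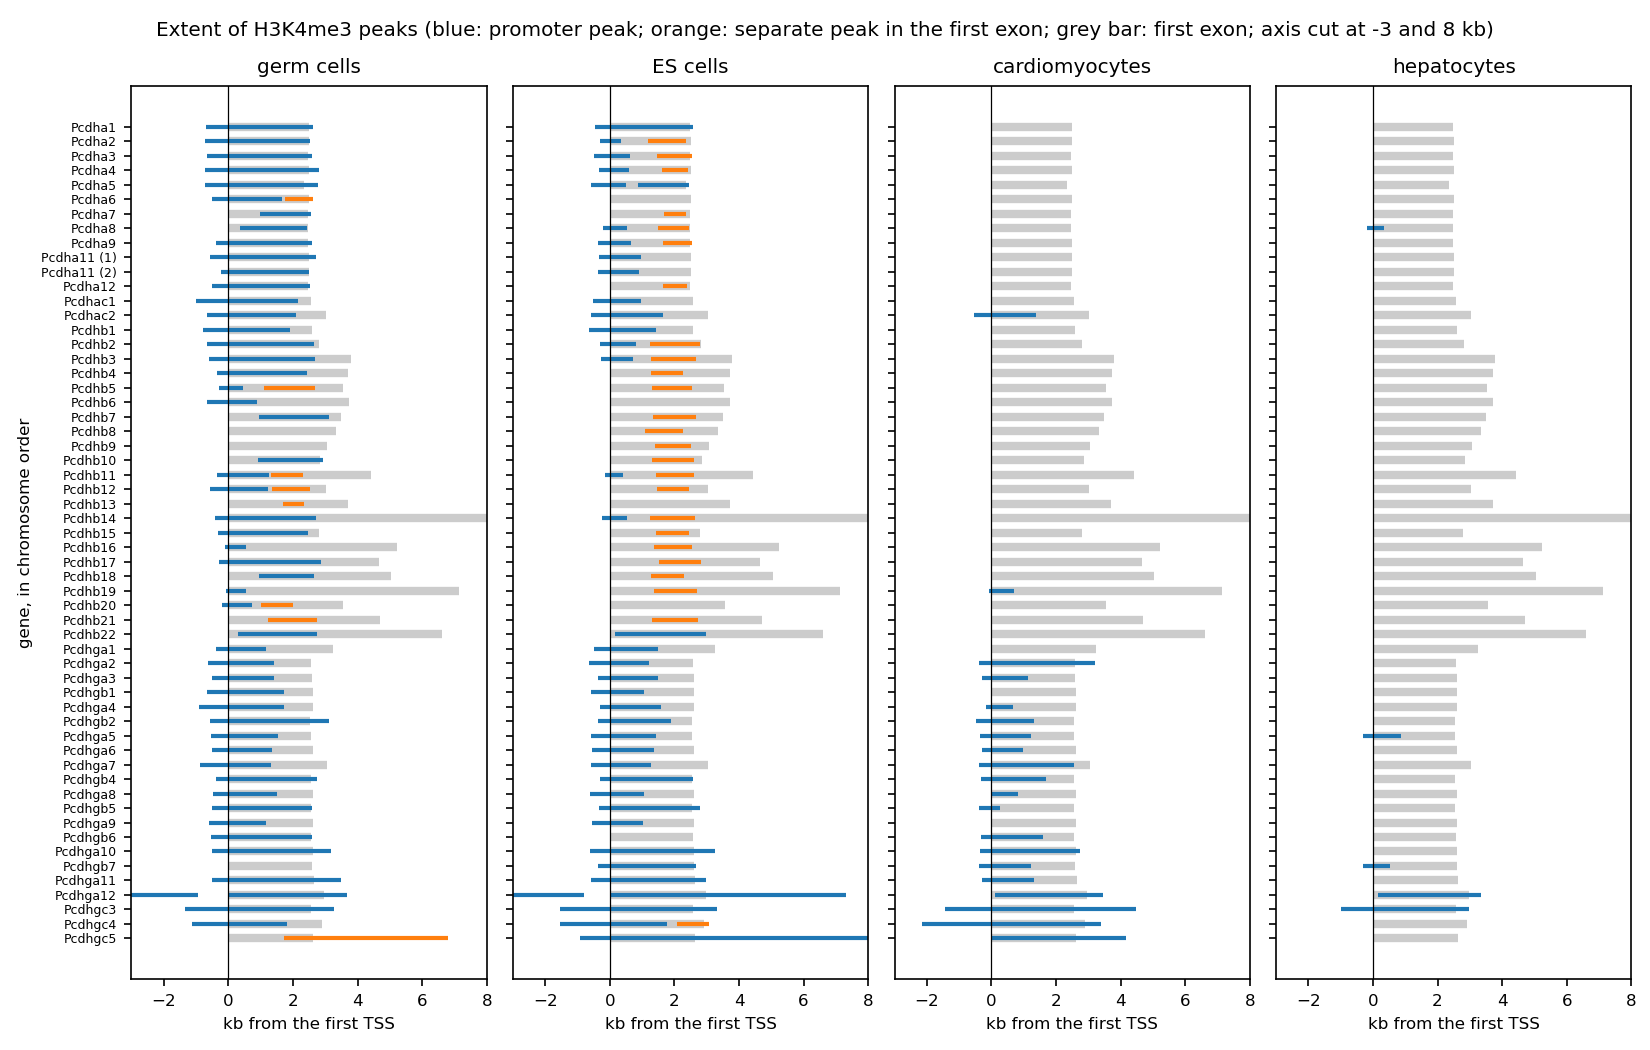
Start and end of each promoter peak (blue) and of each separate first-exon peak (orange) in kb from the gene's first TSS, by cell type, with the first exon as a grey bar. In ES cells the beta genes show mostly orange segments that begin over 1 kb inside the exon. Germ cells have blue segments at 18 of 22 beta genes, of which 15 cover a TSS of the gene. At Pcdhb7, Pcdhb10 and Pcdhb18 the germ cell segment too begins inside the exon.

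Among members with a peak the C-type gene Pcdhgc3 had the highest mean in germ cells and cardiomyocytes, in each strain, and in hepatocytes over the 4 strains pooled. In germ cells its level was 11.7, 18.6 and 16.1 CPM per kb in B6, 14.9, 14.9 and 15.4 in D2, and 14.2 to 15.9 in the 4 F1 libraries. These groups overlapped. The next germ cell members by mean over strains were Pcdhga12 at 9.90, Pcdhgc4 at 9.61 and Pcdhac2 at 7.55 CPM per kb, and Pcdhga12 and Pcdhgc4 overlapped in their libraries. The lowest were Pcdhb16 at 1.68 and Pcdhb20 at 1.78 CPM per kb. The member median was 4.03 CPM per kb against 11.4 for all 14709 germ cell promoter peaks, with 2.25 for beta, 4.15 for alpha and 5.06 for gamma peaks.

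ES cells had a flatter order. The highest were Pcdhga1 at 8.64, Pcdhga7 at 8.52, Pcdhga8 at 8.24 and Pcdhgc3 at 8.04 CPM per kb, values that lie within the range of Pcdhgc3 over the 16 lines (6.95 to 9.62). The lowest were Pcdha8 at 2.41 and Pcdhb14 at 2.47 CPM per kb. The ES member median was 4.45 against 7.17 CPM per kb for all promoter peaks. The other C-type genes stood at 7.10 (Pcdhac2), 7.02 (Pcdhgc5), 6.29 (Pcdhgc4) and 3.68 (Pcdhac1) CPM per kb.

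In cardiomyocytes Pcdhgc3 averaged 15.3 CPM per kb, above 92.0% of all cardiomyocyte promoter peaks, followed by Pcdhgc4 at 9.62, Pcdhga4 at 8.64 and Pcdhga5 at 8.53. The place of Pcdhga4 differed by strain: its mean was 11.7 in D2 and 12.2 in BXD75, next after Pcdhgc3, but 4.89 in B6 and 5.71 CPM per kb in BXD87, below the member median over strains. The lowest were Pcdhgb6 at 4.42 and Pcdhgb7 at 4.52 CPM per kb, and the member median was 6.75 against 11.2. Pcdhac2 averaged 6.71 and Pcdhgc5 5.23 CPM per kb. In hepatocytes the levels were 6.92 at Pcdhgc3, 6.40 at Pcdhga12, 5.22 at Pcdhga5, 4.93 at Pcdhgb7 and 2.03 at Pcdha8, with a median over all promoter peaks of 9.41 CPM per kb. The order of the leading hepatocyte members differed by strain. In D2 Pcdhga12, at 5.96 to 7.85, lay above Pcdhgc3, at 5.09 to 5.64, in every library. In B6 both lay close together, at 6.26 to 6.87 and 6.30 to 6.59. In BXD75 Pcdhgc3, at 8.68 to 9.07, lay above Pcdhga12, at 4.999 to 5.97 CPM per kb. Pcdhgb7 stood at 7.70, 10.47 and 10.6 there, above Pcdhgc3 in all but the lowest library. In BXD87 Pcdhgc3, at 6.09 to 7.78, overlapped Pcdhga5, at 5.13 to 8.43 CPM per kb.

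Levels were compared between cell types in B6 and D2 at peaks of 2 lists that overlapped by 50% each way, with edgeR's quasi-likelihood test, strain as a covariate and peak length as an offset. Hepatocytes and cardiomyocytes shared sex, age, kit and antibody lot. In the other pairs cell type goes with sex, age and, against germ cells, with kit and antibody lot, and these cannot be told apart. In ES against germ cells 20 of 25 matched member peaks differed, 19 higher in ES cells and 1 lower, where 66.2% of all 23723 matched peaks were called. Of the 25, the ES peaks of Pcdhb7, Pcdhb10 and Pcdhb18 were inner first-exon peaks. The germ cell peaks of these genes also start inside the exon, 906 to 963 bp after the TSS. The largest differences were at gamma genes: Pcdhga1 was higher in ES cells by 1.38 ± 0.11 (log2, SE; adjusted p = 6.3e-09), Pcdhgb1 by 1.24 ± 0.15 and Pcdhga8 by 1.24 ± 0.11. Pcdhgc3 was lower in ES cells, at -0.42 ± 0.09 (adjusted p = 0.00024).

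Scaling on reads in all peaks instead of TMM moved the median of all matched peaks from 0.04 to -0.42 in that comparison. The member split became 9 higher and 5 lower of 14 called, while the member median of 0.54 became 0.07, so that the members lay above the median of all peaks by a like amount in both.

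The other pairs gave fewer matched members. In ES cells against cardiomyocytes 7 of 12 differed (45.6% of all), 6 higher and 1 lower, and with the other scaling 1 higher and 5 lower, while the median of all peaks moved from 0.01 to -0.53. Pcdhga8 was higher in ES cells by 1.04 ± 0.13 and Pcdhgc3 lower at -0.36 ± 0.06. In germ cells against cardiomyocytes 8 of 12 members were lower and 0 higher (70.5% of all called), and 5 were lower and 0 higher with the other scaling, whose median of all peaks was 0.16 against -0.06. The largest was Pcdhb19 at -2.12 ± 0.33 (adjusted p = 2.0e-05), followed by Pcdhga7 at -1.03 ± 0.12.

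Hepatocytes could be compared at 3 or 4 members. Against ES cells 2 of 3 were called, both higher in ES cells (62.5% of all), with Pcdhgc3 at 0.84 ± 0.07 and Pcdhga5 at 1.11 ± 0.15. Against germ cells 1 of 3 was called (72.7% of all), Pcdhgc3, higher in germ cells by 0.98 ± 0.07, and with the other scaling all 3 were. Against cardiomyocytes 2 of 4 were called (67.2% of all), Pcdhgc3 at -1.25 ± 0.08 and Pcdhga5 at -1.10 ± 0.16, both lower in hepatocytes, and with the other scaling all 4 were lower. The other scaling moved the medians of all peaks in these 3 comparisons from 0.01 to -0.23, from -0.01 to 0.49 and from 0.00 to -0.23.

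In germ cells 10 of 52 member promoter peaks differed between the founder strains, and all 10 were lower in B6. This compares B6 minus D2 by edgeR's quasi-likelihood test over all peaks, called at an adjusted p under 0.05. Of all peaks 17.3% were called and of all promoter peaks 4.4%, and 8.11% of all peaks were called lower in B6. The 10 comprise 3 alpha, 4 beta and 3 gamma genes. The log2 difference was negative at 44 of 52 members, at 14 of 14 alpha, 15 of 18 beta and 15 of 20 gamma peaks, with a member median of -0.38 against -0.02 for all peaks and -0.07 for promoter peaks. The same sign was found at 65.2% of promoter peaks and 51.7% of all peaks. At 31 members the 3 B6 and 3 D2 libraries did not overlap, and at 30 of these B6 was lower. Non-overlapping libraries with B6 lower were found at 8.82% of promoter peaks and 16% of all peaks. Median depth was 8.27 in B6 and 27.7 in D2, in units of 1000000 reads in peaks, and its part was not tested.

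Pcdhga4, a type A gamma gene, had the smallest p. Its level was 3.64, 4.18 and 4.23 CPM per kb in B6 and 7.63, 7.65 and 7.87 in D2. The groups were well apart, and the F1 libraries, at 4.88, 5.64, 5.84 and 6.09 CPM per kb, lay between them. The log2 difference was -0.94 ± 0.16 (adjusted p = 0.00025).

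Pcdhb3, of the beta cluster, stood at 2.62, 2.90 and 2.91 CPM per kb in B6 and at 4.66, 4.79 and 4.83 in D2, with F1 at 3.45 to 4.23. Here too F1 fell between groups that did not overlap, and the difference was -0.76 ± 0.16 (adjusted p = 0.0021). Pcdhgb4, a type B gamma gene, stood at 3.13, 3.39 and 3.43 in B6 and 4.73, 5.29 and 6.03 CPM per kb in D2 (-0.69 ± 0.16). Pcdha4 stood at 2.59, 2.93 and 3.67 in B6 and 4.75, 5.17 and 5.18 CPM per kb in D2 (-0.70 ± 0.17).

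The remaining called members were Pcdhb7 (-0.97 ± 0.29), Pcdha8 (-0.74 ± 0.23), Pcdhb14 (-0.62 ± 0.19), Pcdhga1 (-0.58 ± 0.19), Pcdha2 (-0.51 ± 0.16) and Pcdhb6 (-0.86 ± 0.28), with adjusted p from 0.024 to 0.040. Pcdhb7 was low in one B6 library, at 0.604 against 1.65 and 1.86 CPM per kb in the others. The Pcdhb6 peak is named as found on the second genome alone. Among members that were not called, Pcdhb16 went the other way, with 2.42 to 2.76 CPM per kb in B6 and 0.348, 0.701 and 1.68 in D2. The C-type genes did not pass, among them Pcdhgc3 and Pcdhac2, whose B6 and D2 libraries overlapped.

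Pcdhga4 and Pcdhb3 passed under every alternative run. The count fell to 4 of 52 when any of B6 library B62, D2 replicate 1 or D2 replicate 2 was left out, to 5 without B6 library B64, and to 4 with F1 left out of the fit. B6 and D2 germ cell libraries also differed in marker levels. The 9 germ cell markers with a peak summed to 95.9 to 111 CPM per kb in B6 and 129 to 131 in D2, with 0 of 9 called. Of 7 Sertoli and Leydig markers Rhox5 (1.06 ± 0.31) and Cldn11 (0.63 ± 0.17) were higher in B6 and Hsd3b1 (-1.86 ± 0.29) lower, with sums of 40.7 to 58.6 in B6 and 42.3 to 47.6 CPM per kb in D2, while Star, Cyp11a1 and Cyp17a1 had no peak. Of 10 neuron markers Elavl3 was lower in B6 (-0.52 ± 0.16), with sums of 48.6 to 65.0 in B6 and 59.2 to 65.2 CPM per kb in D2. Their part in the member differences was not tested.

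**Figure D3:**
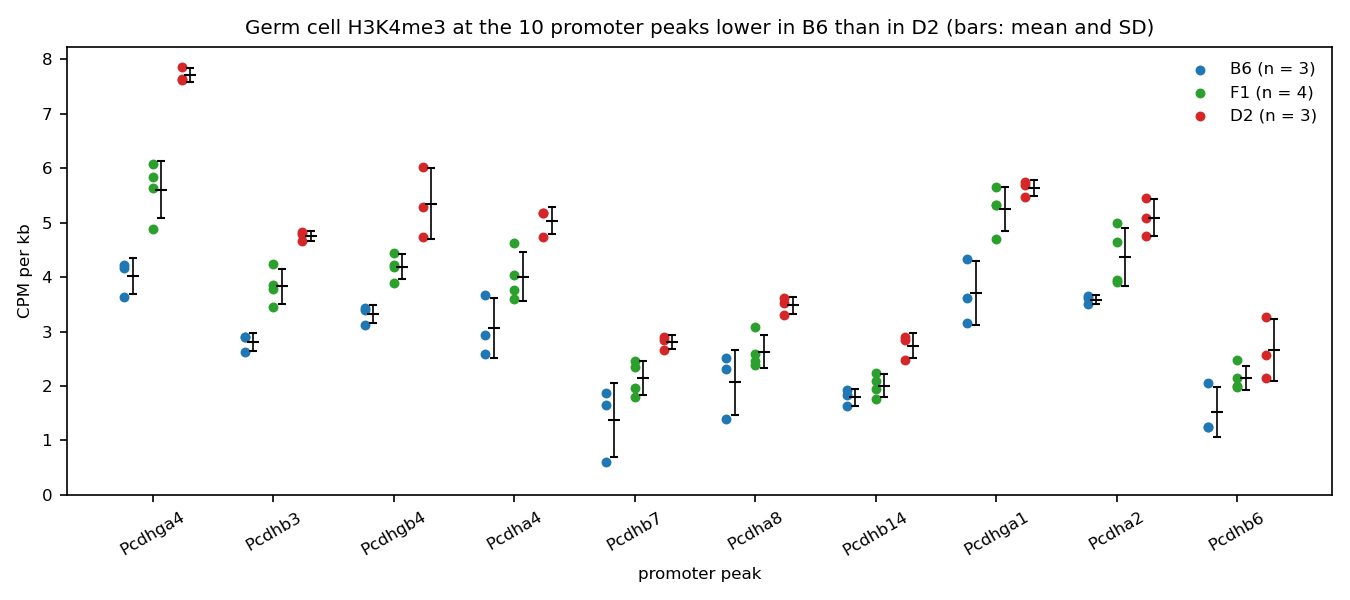
Level in CPM per kb (y axis) of the 10 member peaks called between B6 and D2 germ cells, ordered by p, with 1 point per library and the mean and SD. For Pcdhga4 the 3 B6 libraries sit at 3.64 to 4.23, the 4 F1 libraries at 4.88 to 6.09 and the 3 D2 libraries at 7.63 to 7.87.

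The F1 hybrid was compared with the mean of its parents on the log2 scale and with each parent. No member was called in any of the 3 comparisons with edgeR, where 1.59%, 4.69% and 5.87% of all peaks were called against the parental mean, B6 and D2, and 0.381%, 1.12% and 1.13% of promoter peaks. At an unadjusted p under 0.05 there were 1, 8 and 8 members, and DESeq2 called 0, 0 and 3. The smallest p was at Pcdhga4 against both parents, with F1 minus B6 at 0.48 ± 0.15 (adjusted p = 0.085) and F1 minus D2 at -0.46 ± 0.14 (adjusted p = 0.063). These comparisons share the F1 libraries. Next came Pcdhb3 (0.44 ± 0.15) and Pcdhb17 (0.49 ± 0.18) against B6, and Pcdhga3 (-0.43 ± 0.15) and Pcdhgb6 (-0.43 ± 0.15) against D2. Against the parental mean the members with the smallest p were Pcdhb17 (0.31 ± 0.14), Pcdhga3 (-0.23 ± 0.13) and Pcdha9 (-0.23 ± 0.13), and the member median was 0.02, as for all peaks.

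In ES cells 2 of 39 members differed between the founders (30.6% of all peaks, 12.5% of promoter peaks), both higher in B6 (14.8% of all). Both are type B gamma genes. Pcdhgb2 stood at 4.44, 4.75 and 4.89 CPM per kb in the 3 B6 lines and at 3.00, 3.28 and 3.5 in the 3 D2 lines. The lines did not overlap, and the difference was 0.54 ± 0.13 (adjusted p = 0.0026). Pcdhgb7 stood at 4.79, 5.07 and 5.12 in B6 and 2.77, 3.62 and 3.88 CPM per kb in D2 (0.56 ± 0.14, adjusted p = 0.0046). The member median was -0.02, with 21 negative and 18 positive differences. The count was 4 without D2 line 203 or D2 line 216. Pcdhga4 ran from 6.54 to 7.60 in B6 and from 7.08 to 9.41 CPM per kb in D2, overlapping groups that were not called. Of the 7 stem cell markers and 3 feeder fibroblast markers with a peak 0 were called between the founders, with stem cell sums of 69.8 to 73.5 in B6 and 67.0 to 80.1 CPM per kb in D2. Of markers of other cell types, the germ cell genes Stra8, Sycp3 and Ddx4 (3 of 8) and the neuron gene Snap25 (1 of 10) were higher in B6, and Wt1, Apoa1, Pecam1 and Cd68 were lower. Germ cell marker sums were 33.6 to 37.7 in B6 and 23.1 to 33.8 CPM per kb in D2, and the part of these markers was not tested.

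Between the ES lines of BXD75 and BXD87 4 of 39 members differed, 2 in each direction (21.8% of all peaks, 11.7% of promoter peaks). Pcdhgb2 stood at 2.97 to 3.37 CPM per kb in the 5 BXD75 lines, median 3.27, and at 4.74 to 5.65 in the 5 BXD87 lines, median 4.98. Its difference of -0.67 ± 0.10 had the smallest p among the ES members (adjusted p = 3.8e-05), and each set of lines lay close to 1 founder, BXD75 to D2 and BXD87 to B6. A peak upstream of Pcdhga12 was lower in BXD75 (-0.48 ± 0.13, lines overlapping at 2.99 to 4.56 and 4.51 to 5.26 CPM per kb), Pcdha8 higher (0.80 ± 0.25) and Pcdhga9 higher (0.31 ± 0.11). Pcdha8 lines overlapped, at 2.00 to 4.11 in BXD75 and 1.04 to 2.68 CPM per kb in BXD87. Leaving out single lines took the count to 2, without BXD75 line F, N or Y or BXD87 line I or K, with Pcdha8 and Pcdhga9 not called in each. Klf4 was the 1 of 7 stem cell markers called, higher in BXD75 (0.21 ± 0.07), and of other markers Ddx4, Krt19 and Stmn2 were higher and Dmc1, Rhox5 and Wt1 lower in BXD75, with their part not tested.

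Spread between ES lines within strain was smallest at Pcdhga7 (SD 0.05 on log2 CPM over 16 lines) and largest at Pcdha8 (SD 0.44). The member median SD was 0.14 against 0.16 for all promoter peaks.

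In cardiomyocytes 3 of 20 members differed between the founders, all lower in B6 (6.51% of all peaks, 8.66% of promoter peaks, and 2.45% of all peaks lower). Pcdhga4 stood at 4.57, 4.62 and 5.48 CPM per kb in B6 and at 10.01, 12.2 and 12.9 in D2. The groups did not overlap, and the difference was -1.24 ± 0.31 (adjusted p = 0.029), in the same direction as in germ cells. Pcdhb19 stood at 4.16, 5.18 and 5.83 in B6 and 9.44, 11.8 and 12.1 CPM per kb in D2 (-1.11 ± 0.28, adjusted p = 0.031). The Pcdhga4 and Pcdhb19 peaks are named as found on the reference genome alone. The C-type gene Pcdhgc4 stood at 8.11, 8.91 and 9.44 in B6 and 10.6, 11.7 and 12.3 CPM per kb in D2 (-0.39 ± 0.10, adjusted p = 0.038). All 3 rest on shallow D2 libraries, and the count was 0 without B6 replicate 1, B6 replicate 3, D2 replicate 1 or D2 replicate 2, 1 without D2 replicate 3 and 5 without B6 replicate 2, while the direction of all 3 held throughout.

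The founder cardiomyocytes differed in marker levels as well. The 6 cardiomyocyte markers with a peak summed to 62.01 to 71.1 CPM per kb in B6 and 43.7 to 47.8 in D2, with Myl3, Tnni3, Pln and Myl2 called higher in B6. The 6 neuron markers with a peak summed to 20.1 to 40.8 in B6 and 42.7 to 54.1 CPM per kb in D2, with Stmn2 called lower in B6 (-0.91 ± 0.23), and Snap25, Rbfox3, Elavl3 and Gap43 had no peak. The 4 non-myocyte markers with a peak overlapped, at 33.8 to 41.2 and 36.6 to 40.3 CPM per kb. Their part in the member differences was not tested.

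Between BXD75 and BXD87 cardiomyocytes 2 of 20 members differed, both lower in BXD75 (0.529% of all peaks, 0.37% of promoter peaks, 0.21% of all peaks lower). Pcdhgb2 stood at 2.78, 2.88 and 3.03 in BXD75 and 6.54, 6.89 and 7.58 CPM per kb in BXD87 (-1.27 ± 0.16, adjusted p = 0.0021). The direction is that of the ES lines of the same strains, but here the founders overlapped, at 6.00 to 6.27 in B6 and 5.32 to 6.59 CPM per kb in D2, and BXD75 lay below both. Pcdhga12 stood at 3.62, 5.34 and 5.45 in BXD75 and 9.46, 10.2 and 10.48 CPM per kb in BXD87 (-1.06 ± 0.17, adjusted p = 0.0089). Here too BXD75 lay below both founders, which stood at 9.33 to 11.3 in B6 and 6.46 to 7.65 CPM per kb in D2. The Pcdhgb2 and Pcdhga12 peaks are named as found on the reference genome alone. At 10 of 20 members the 2 strains did not overlap, at 7 of them with BXD75 lower, where 16.1% of promoter peaks and 17% of all peaks did not overlap. Pcdhga12 was not called without BXD87 replicate 3 (adjusted p = 0.062), and neither gene with only these strains in the fit. Cardiomyocyte markers summed to 56.1 to 62.96 CPM per kb in BXD75 and 70.8 to 80.5 in BXD87, and neuron markers to 19.2 to 46.4 and 15.7 to 21.8, with 0 called of either list and their part not tested.

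In hepatocytes 1 of 5 members differed between the founders (15.8% of all peaks, 7.37% of promoter peaks), Pcdha8. It stood at 0.82, 1.02 and 1.42 CPM per kb in B6 and 1.95, 3.52 and 4.30 in D2, groups that did not overlap (-1.59 ± 0.41, adjusted p = 0.012). The peak is short, is named as found on the second genome alone, and lost the call without B6 replicate 3, D2 replicate 1 or D2 replicate 2. Between BXD75 and BXD87 1 of 5 differed (4.89% of all peaks, 1.77% of promoter peaks), Pcdhgb7, with 7.70, 10.47 and 10.6 CPM per kb in BXD75 and 2.98, 4.67 and 4.83 in BXD87. BXD75 was higher by 1.18 ± 0.19 (adjusted p = 0.00046), and the call held in every alternative. The founders stood at 2.34 to 2.83 in B6 and 2.93 to 3.65 CPM per kb in D2, so BXD75 lay above both. Hepatocyte markers summed to 98.8 to 151 CPM per kb over all libraries, with 0 of 10 called in either comparison. The 3 of 8 liver non-parenchymal markers with a peak (not Clec4f, Lyve1, Pecam1, Pdgfrb or Krt19) summed to 13.9 to 18.02 in B6 and 16.7 to 33.8 CPM per kb in D2, and the endothelial marker Stab2 was lower in B6 (-2.41 ± 0.28). Pdgfra, a fibroblast marker, was higher in B6 (0.69 ± 0.14). The non-parenchymal sums were 8.68 to 10.05 in BXD75 and 9.20 to 11.2 CPM per kb in BXD87, with 0 called. Their part in the member differences was not tested.

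**Figure D4:**
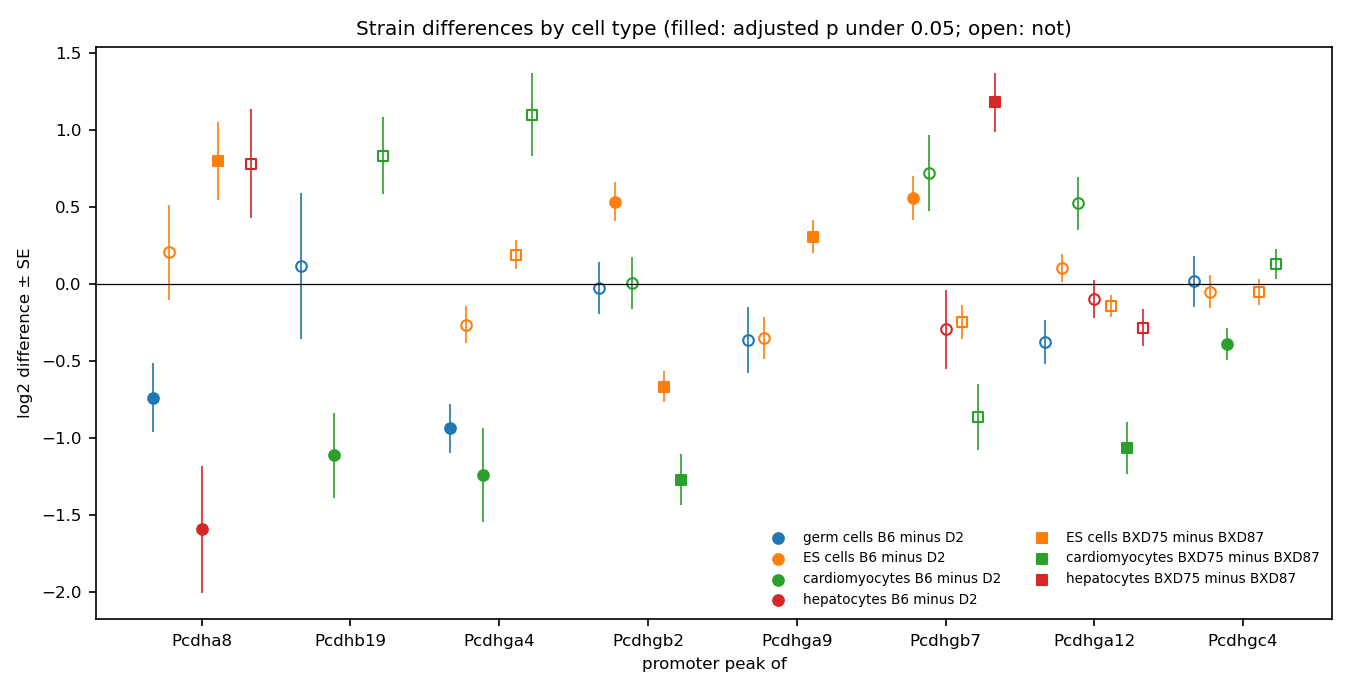
Log2 difference ± SE (y axis) of 8 members called in at least 1 comparison other than germ cell founders (x axis), for B6 minus D2 (circles) and BXD75 minus BXD87 (squares) by cell type, filled where called. Pcdhga4 is filled below 0 in germ cells and cardiomyocytes, and Pcdhgb2 is filled below 0 for BXD75 minus BXD87 in both ES cells and cardiomyocytes.

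Related genes outside the clusters were tested in the same fits. Of 26 non-clustered protocadherins and related cadherins 18 had a germ cell promoter peak and 0 were called between B6 and D2 (median -0.14), with the smallest p at Celsr3 (-0.43 ± 0.16). Of 26 genes known to act on clustered protocadherin promoters 25 were tested and 0 called (median -0.03), with the smallest p at Tet2 (0.38 ± 0.18). Of 30 other genes near the clusters 27 were tested and 0 called (median -0.08).

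In ES cells the founders differed at 3 of 22 genes that act on these promoters, a share near the 12.5% of all promoter peaks called. All 3 were higher in B6: Wiz, a partner of the G9a methyltransferase complex (1.18 ± 0.11, adjusted p = 3.9e-08), the histone methyltransferase gene Ehmt1 (0.67 ± 0.16) and the DNA methyltransferase gene Dnmt3a (0.60 ± 0.18). Dnmt3a was also higher in BXD75 than BXD87 lines (0.61 ± 0.14), as 1 of 22 where 11.7% of promoter peaks were called. Of the non-clustered protocadherins 2 were higher and 1 lower in B6 ES lines, led by Cdhr5 (1.27 ± 0.26), and 3 of 22 were higher in BXD75, led by Cdhr1 (0.61 ± 0.14). Nearby genes gave 2 lower in B6 of 30, Fgf1 (-1.32 ± 0.23) and Pcdh12 (-0.73 ± 0.20), and 3 higher and 1 lower in BXD75, led by Gnpda1 (0.46 ± 0.07).

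In founder cardiomyocytes Pcdh7 was higher (0.57 ± 0.10) and Dchs1 lower (-0.60 ± 0.15) in B6 of 18, the cohesin gene Stag2 (0.68 ± 0.12) and Lrif1 (0.51 ± 0.14) were higher of 25, and of 28 nearby genes Zmat2 was higher and Spry4 lower, where 8.66% of all promoter peaks were called. In founder hepatocytes 3 of 13 non-clustered protocadherins were higher in B6, Pcdh17 (2.13 ± 0.16), Pcdh19 (1.88 ± 0.49) and Fat4 (0.61 ± 0.16), where 7.37% of all promoter peaks were called, with 0 of 23 and 0 of 29 in the other lists. Neither BXD75 against BXD87 in these 2 cell types nor the F1 comparisons had a called gene in the 3 lists.

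In the BXD germ cell panel antibody lot was compared over 28 strains with lot 2557645 and 32 with lot 2746331, by limma on strain means. Of 52 members 34 were called, 33 of them lower with lot 2557645 and only Pcdhb12 higher (0.30 ± 0.09), where 56.5% of all peaks were called and 29.1% were called lower. Of all 14709 promoter peaks 9367 were called, 4009 of them lower. The member median was -0.14 against -0.04 for all peaks. The lot is not separated from strain or depth. Lot means were therefore subtracted before strains were compared with each other, over 60 strains.

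Spread between BXD strains was largest at thin beta peaks. The median SD of log2 CPM over strains was 0.20 for members, 0.17 for all promoter peaks and 0.32 for all peaks. The widest were Pcdhb16 (0.59), Pcdhb19 (0.55), Pcdhb20 (0.54) and Pcdhb5 (0.46). These peaks have a median of 16 to 30 reads per library and a lowest library of 0 reads, and BXD84 was the lowest strain at all 4. The BXD84 value averages 2 libraries, of which 1 is the shallowest of the panel, at 1868469 reads in peaks. The narrowest was Pcdhgc3 (0.13), with a median of 882 reads.

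Levels of member peaks were mostly positively correlated across strains. Over 1326 pairs the median Pearson r was 0.31, with 1085 pairs positive, and it was 0.28 and 0.36 within the 2 lots. It was 0.50 between pairs of alpha genes, 0.31 between gamma genes and 0.23 between beta genes. Members against promoter peaks of other chromosomes had a median r of -0.04. The strains share the same peaks, normalisation and lot correction, and these correlations are descriptions.

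The strongest pair joined different clusters, Pcdhb3 and Pcdhga4, which lie 384 kb apart and were the 2 members with the smallest p between the founders. Their r was 0.80 over 60 strains (Spearman's rho 0.81), 0.78 and 0.81 within the lots and 0.77 without the 2 strains farthest from the median. Pcdhgb5 with Pcdhga11 (0.78) and Pcdhga10 with Pcdhga11 (0.78) followed. The most negative pair was Pcdhb12 and Pcdhgc4, with r = -0.63 (rho -0.53, within lots -0.51 and -0.70, without the 2 farthest strains -0.58).

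**Figure D5:**
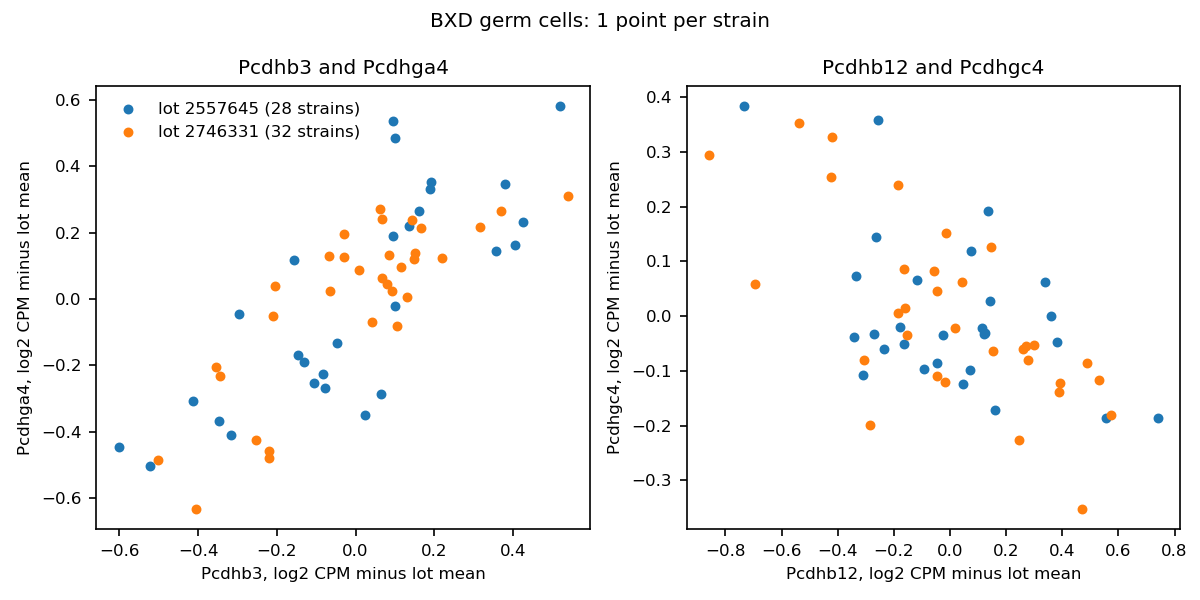
Level of 2 pairs of members in BXD germ cells, as log2 CPM minus the lot mean on both axes, with 1 point per strain and colour for antibody lot. Pcdhb3 and Pcdhga4 go up together (r = 0.80), and Pcdhb12 and Pcdhgc4 go in opposite directions (r = -0.63).

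Around the clusters 13 other peaks within 2 Mb were called between founder germ cells, 10 of them higher in B6. Each peak's deviation from the lot mean was divided by its SD over strains and signed so that B6 is up. The mean over the 13 peaks served as a score for each strain. Pcdhga4 fell with this score (r = -0.67, rho -0.64, within lots -0.60 and -0.75) and so did Pcdhb3 (r = -0.58, rho -0.56, within lots -0.51 and -0.67). Without the 2 strains farthest from the median score r was -0.62 and -0.55. Of the 10 members called lower in B6, 9 had a negative r (median -0.25), and of the 42 others 31 did (median -0.17).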

How the data were processed

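The analysis used 123 H3K4me3 libraries. CASAVA 1.8, BWA 0.5.10 and MACS 1.4.2 and the build mm10 are named in the submitters' processing notes; their roles, filters and the second genome's build are not given in the sources used here. The count tables deposited by the authors hold whole-number read counts per peak, not normalised, with 0 columns left unmapped. The association lists deposited by the authors give peak coordinates (unit: other) and names that mark peaks found on both genomes or on 1. The B6 germ cell columns carry numbers that the labels lack and were taken as unnumbered replicates.

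Members, lists and tests were chosen with earlier results of these data known. Peaks within 1 kb of a GENCODE M21 TSS were promoter peaks. Counts were fitted in R 4.3.3 with edgeR 4.0.16 (filterByExpr, TMM, robust glmQLFit), 1 fit per cell type over its strains, with Benjamini-Hochberg adjustment over all peaks tested, and limma 3.58.1 tested antibody lot without BXD99, which has both lots. Cell types used peaks matched with bedtools 2.31.1, with TMM on reads per kb. Named members are every called one, or the 8 with the smallest p (the 3 smallest where none was called), and the highest, lowest and C-type members by level. Pcdha2, Pcdhb6 and Pcdhb16 in founder germ cells, Pcdhga4 in founder ES lines and the panel pairs were named after their values were seen. Same-numbered libraries deviated together (r over 0.1) in 0 of 3 germ cell, 5 of 18 hepatocyte and 8 of 18 cardiomyocyte pairs, so the main fits have no block. Counts with 2-fold changes were simulated and fitted for the B6 and D2 libraries alone. For B6 minus D2 41.7% were recovered in germ cells, 63% in ES cells, 85% in cardiomyocytes and 89.5% in hepatocytes. The main fits also hold F1 or BXD libraries, and their recovery was not simulated. Alternatives were DESeq2 1.42.0, other size factors, count filters, windows, overlaps and fits of only the groups compared, and leaving out each library.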

Additional observations from a re-analysis of the deposited data

Results flagged for a closer look

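Among 130 groups of 4 to 10 samples, 4 held a value far from the others, and chance flags about 1 in 20 groups. They were Pcdhb11 in germ cell F1 replicate 1, at 4.37 CPM per kb against 2.41 to 2.65, Pcdhb16 in F1 replicate 4, at 1.17 against 1.69 to 1.77, Pcdhgb2 in F1 replicate 2, at 3.11 against 4.15 to 4.28, and Pcdhb22 in BXD87 ES line K, at 3.70 against 3.09 to 3.25.

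At some members the strains did not overlap and differed in opposite directions in different cell types. The dependence on cell type was not tested. Between founders 12.5% of promoter peaks did not overlap in germ cells, 18.3% in ES cells, 22.3% in hepatocytes and 34.9% in cardiomyocytes. Of all peaks these shares were 30%, 36.2%, 30.7% and 33.4%. Between BXD75 and BXD87 they were 7.7% of promoter peaks in hepatocytes and 16.1% in cardiomyocytes. Of the differences below, only those of Pcdhgb7 in founder ES cells and in BXD75 against BXD87 hepatocytes were called. For B6 minus D2, Pcdhb1 was at -0.40 (log2) in germ cells and 0.34 in ES cells, and Pcdhb2 at -0.47 and 0.35. Pcdhga12 was at -0.37 in germ cells and 0.52 in cardiomyocytes, and Pcdhgc3 at 0.26 in hepatocytes and -0.22 in cardiomyocytes. Pcdhgb7 was at -0.29 in hepatocytes, 0.72 in cardiomyocytes and 0.56 in ES cells. For BXD75 minus BXD87, Pcdhgb7 was at 1.18 in hepatocytes and -0.86 in cardiomyocytes.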

How the results depend on the processing

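The 23 log2 differences of named members gave 278 alternative values, of which 0 changed direction, 204 kept their side of the threshold and 74 were no longer called. Counts of called members moved as follows. In founder germ cells the count of 10 was 5 with at least 50 reads in every library of a group, 4 with only the groups compared and 4 to 11 on leaving out 1 library. F1 minus D2 went from 0 to 3 with DESeq2 and to 1 with RLE size factors or with only the groups compared. In founder hepatocytes the count of 1 was 0 with the 50-read filter and 0 to 1 without single libraries. In founder cardiomyocytes the count of 3 was 5 with DESeq2, 7 with only the groups compared and 0 to 5 without single libraries. The replicate block left 1. Same-numbered cardiomyocyte libraries deviated together (r over 0.1) in 8 of 18 pairs, and whether replicate numbers pair these samples is not known. The block moved no other count by over 1.5 times. BXD75 against BXD87 cardiomyocytes went from 2 to 6 with DESeq2, 0 with only the groups compared and 1 to 3 without single libraries. In ES cells the founder count of 2 was 5 with DESeq2, 1 with only the groups compared, 10 with each library a replicate and 2 to 4 without single lines, and the BXD75 against BXD87 count of 4 was 2 to 4. Cell type counts moved with the overlap required. With any overlap and with 80% overlap they were 31 and 12 for ES against germ cells, 4 and 1 for ES cells against hepatocytes, 11 and 1 for ES cells against cardiomyocytes, and 15 and 2 for germ cells against cardiomyocytes. At 80% overlap germ cells against hepatocytes gave 2 and hepatocytes against cardiomyocytes 0, with 2 to 4 of the latter without single samples (4 without hepatocyte D2 replicate 3). Library size from all peaks gave 3, 5 and 4 for germ cells against hepatocytes, germ cells against cardiomyocytes and hepatocytes against cardiomyocytes. The cause was not tested. Leaving out BXD83, an alternative chosen after seeing the data, took the median r between member pairs from 0.31 to 0.32. The 4 beta peaks with the widest spread over BXD strains had a median of 16 to 30 reads per library. A germ cell fit of B6 and D2 alone recovered 41.7% of simulated 2-fold changes.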
